A study of Mus musculus with 11 samples.

Results

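The 11 mouse livers of the study fell into 2 sets by how the signal of control transcripts changed from the 3′ to the 5′ end. For each sample the log2 signal of the 5′ control probe set was subtracted from that of the 3′ control probe set, for the Gapdh and the Actb control, and the mean of both differences was taken. It lay above 1 in 6 samples, called the wide set here, and below 1 in 5 samples, called the narrow set. The wide set held WT samples 1, 3 and 5 and Gsr-null samples 4, 5 and 6. The narrow set held WT samples 2 and 4 and Gsr-null samples 1, 2 and 3. The sets were therefore chosen on measured values, and both genotypes occurred in both.

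The study compared 5 wild-type (WT) with 6 Gsr-null male mice, all C57BL/6J and 15 to 20 weeks old, whose livers were taken from 2 to 4 in the afternoon. Gsr encodes glutathione reductase, which regenerates reduced glutathione at the expense of NADPH. Total liver RNA, 1 µg of it, was labelled with biotin and measured on 1 array per animal. The values are log2 signals made by the authors with GCRMA. The labels name no batch, date or RNA quality for the samples. Gsr-null samples carry a second running number in their titles, and the replicate number is used here.

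Eukaryotic target for such arrays is commonly made from an oligo-dT primer that sits on the poly-A tail, so the copy starts at the 3′ end of each transcript and reaches the 5′ end only if template and copy are long enough. Control probe sets at the 3′ end, in the middle and at the 5′ end of the abundant Gapdh and Actb transcripts are therefore read as a gauge of RNA integrity and copy length. A gene often has several probe sets on such an array, which can lie at different distances from the 3′ end or on different transcript forms.

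Clock transcripts stood apart in 2 samples of the narrow set, Gsr-null 2 and Gsr-null 3. Dbp, a clock-controlled transcription factor, was at 5.79 and 4.40 in them and between 10.50 and 11.17 in the other 9 samples. Arntl, which encodes the clock activator BMAL1, was at 6.78 and 6.19 against 2.23 to 2.77. Nfil3 and Cry1, 2 clock repressors, were also above every other sample in both, and Nr1d2, Tef and Per3 below every other sample. The part of this in the differences between the sets was not tested directly, so results are given below with and without both samples.

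Within the wide set the mean 3′ minus 5′ difference was 1.41, 1.75 and 1.35 in WT samples 1, 3 and 5 and 1.20, 1.25 and 1.24 in Gsr-null samples 4, 5 and 6. In the narrow set it was 0.63 and 0.54 in WT samples 2 and 4 and 0.60, 0.70 and 0.57 in Gsr-null samples 1, 2 and 3. The closest samples on either side of the limit were Gsr-null 2 at 0.70 and Gsr-null 4 at 1.20. These values chose the sets and carry no test. In the Gsr-null group the sets followed the numbering of the labels and in the WT group they did not.

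The Actb control moved mainly at its 5′ and middle probe sets. Its 5′ signal lay between 10.66 and 10.94 in the narrow set and between 9.05 and 9.81 in the wide set, 1.33 lower in the wide set after adjustment for genotype. Its middle probe set was 0.84 lower and its 3′ probe set 0.47 lower. For the Gapdh control the 5′ probe set was 0.45 lower and the 3′ probe set 0.17 higher in the wide set. In both controls the 5′ probe set thus fell the most, and only the Gapdh control also had a higher 3′ signal.

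**Figure D1:**
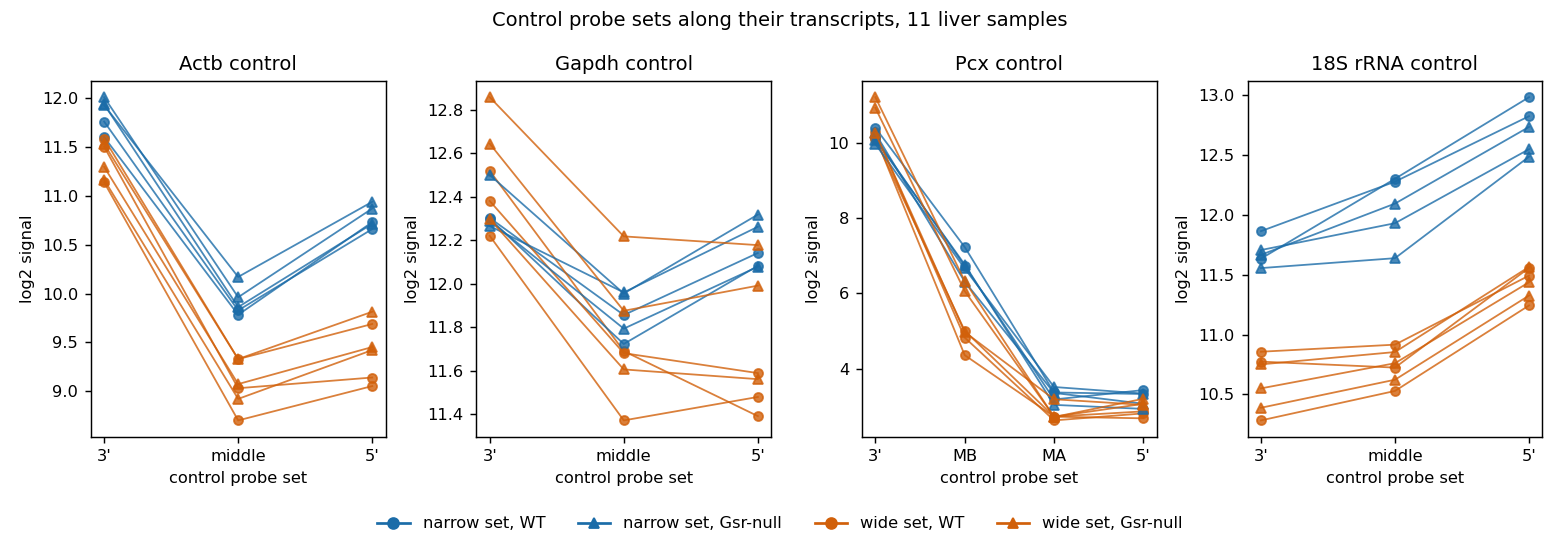
Log2 signal (y axis) of the control probe sets for Actb, Gapdh, Pcx and 18S rRNA, ordered along each transcript from 3′ to 5′ (x axis), with 1 line per sample coloured by set and marked by genotype. Actb and Gapdh chose the sets; the Pcx MB probe set lies between 4.36 and 6.33 in the wide set, and every wide-set line for 18S rRNA lies below every narrow-set line.

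Other control transcripts, which had no part in choosing the sets, also differed between them. The Pcx control measures the transcript of pyruvate carboxylase, a mitochondrial enzyme of gluconeogenesis that is abundant in liver. Its 3′ minus 5′ difference lay between 6.63 and 7.19 in the narrow set and between 7.23 and 8.02 in the wide set, a difference of 0.62 (exact permutation test within genotype, two-sided, p = 0.005, Benjamini-Hochberg adjusted p = 0.0233 over 14 measures). The value 0.005 is the smallest that the 200 arrangements allow. Because the 5′ probe set was near the array floor, at 2.68 to 3.43, the brighter MB probe set, 1 of 2 middle probe sets, was compared as well.

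The Pcx MB probe set was at 7.23 and 6.73 in WT samples 2 and 4, and between 6.31 and 6.76 in the 3 Gsr-null samples of the narrow set. In the wide set it was at 4.82, 4.36 and 5.00 in WT samples 1, 3 and 5 and reached 6.33 in Gsr-null sample 4, so the sets overlapped slightly within Gsr-null samples and not within WT. It was 1.44 lower in the wide set (exact permutation p = 0.01, adjusted p = 0.035). The difference between the 3′ and the MB probe set did not overlap at all, with 3.17 to 3.94 in the narrow and 4.87 to 5.80 in the wide set (1.79 higher, exact permutation p = 0.005, adjusted p = 0.0233). The 3′ probe set alone was 0.35 higher, which did not pass (exact permutation p = 0.18, adjusted p = 0.28). The genotypes differed in which end moved. In Gsr-null samples the 3′ probe set averaged 10.10 in the narrow and 10.80 in the wide set, and the 5′ probe set 3.11 and 3.10. In WT samples the 3′ probe set averaged 10.26 and 10.18, and the 5′ probe set 3.37 and 2.78.

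The 18S rRNA control, which measures the RNA of the small ribosomal subunit, separated the sets without overlap. The mean of its 3 probe sets was 12.32 and 12.31 in WT samples 2 and 4 and lay between 11.89 and 12.32 over the whole narrow set. In the wide set it was 10.68, 11.09 and 11.02 in WT samples 1, 3 and 5, and the set ran from 10.68 to 11.09. The difference was −1.24 (exact permutation p = 0.005, adjusted p = 0.0233). Its own 3′ minus 5′ difference, which is negative in every sample, was 0.20 higher in the wide set and did not pass (exact permutation p = 0.075, adjusted p = 0.175).

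Controls added from outside the liver RNA did not separate the sets. The mean of the bacterial hybridisation controls, which are added after labelling, ran from 9.95 to 10.44 in the narrow and from 9.64 to 10.49 in the wide set, a difference of 0.005 (exact permutation p = 0.98, adjusted p = 0.98). The poly-A controls were at the floor in all samples, with set means of 1.72 and 1.60. The Tfrc control, for the transferrin receptor, was also at the floor, with 3′ signals of 1.84 to 2.77, so it gives no information on the ends. The array median was 0.06 lower in the wide set (exact permutation p = 0.02, adjusted p = 0.056).

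Across the array, limma called 609 of 9560 tested probe sets between the sets with genotype as a covariate (6.37%, at an adjusted p under 0.05). Of these, 154 were higher (1.61%) and 455 lower (4.76%) in the wide set. With the set kept as a block, limma called 46 probe sets between genotypes (0.481%). After quantile normalization of the tested probe sets again the set comparison gave 264 higher and 470 lower, so the share of lower calls was 64.0% in place of 74.7%, and median centring also gave 64.0%.

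Without overlap between the sets inside either genotype were 311 probe sets that were higher (3.25%) and 550 that were lower (5.75%) in the wide set. When Gsr-null samples 2 and 3 were left out, limma called 428 of 9391 probe sets (4.56%), 105 of them higher and 323 lower. Of the 455 lower probe sets 394 were still tested, and all 154 higher ones were. Every one of these kept its sign, and 267 lower and 55 higher ones were called again. This fit reused samples that had made the calls, so kept signs were likely in advance and are no separate support. Probe sets above 4 in the narrow set alone could no longer pass the filter, as fewer than 5 narrow-set samples were left. Leaving out WT 2 lowered the count of lower calls to 213 and leaving out WT 4 lowered it to 250. The count of higher calls was 88, 69, 73 and 52 without WT 1, WT 2, WT 3 and WT 4, and 97, 91 and 66 without Gsr-null 1, Gsr-null 4 and Gsr-null 5.

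The genotypes can be read as separate samples. Within WT, limma called 232 probe sets (2.43%), 44 higher (0.46%) and 188 lower (1.97%) in the wide set. Within Gsr-null samples it called 276 (2.89%), 74 higher (0.774%) and 202 lower (2.11%). Both lists held 73 probe sets with the same sign, 31.5% of the WT list and 26.4% of the Gsr-null list, and 71 of these were lower and 2 higher. Of the 188 called lower in WT samples 175 were also negative in Gsr-null samples, and of the 44 called higher 33 were also positive, while 58.0% of all tested probe sets had the same sign in both. Both fits share 1 estimate of the spread. A probe set with no wide-set sample above 4 passed the filter only if every narrow-set sample was above 4. Its sign is then negative in both genotypes in advance. Between the sets, 32 of the probe sets called lower were of this kind. Of those called higher, 8 had no narrow-set sample above 4, which favours a positive sign in both. These were not removed from the counts within genotypes, so part of the shared signs may come from the filter.

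A difference of the set effect between genotypes was called by limma for 0 probe sets (0%), with 1078 at an unadjusted p under 0.05 and a smallest adjusted p of 0.059. With trend and robust options the count was also 0. It depended on single samples: limma called 172 without Gsr-null 6, 21 without WT 1, 2 without Gsr-null 1 and 1 without Gsr-null 4.

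The lower calls lay mostly in the dimmer probe sets of genes with several. Among 1925 genes with at least 2 tested probe sets, 319 of the 2745 probe sets other than the brightest were lower in the wide set (11.6%). The share was 1.66% among the brightest probe sets (32 of 1925) and 1.44% among the 4097 genes with a single tested probe set (59). The brightest probe set was chosen by the mean over all samples, so a lower value in the wide set itself moves a probe set toward the dimmer class. Chosen by the narrow-set samples alone, which acts the other way, the shares were 11.3% of the dimmer (310) and 2.13% of the brightest probe sets (41). Of all called lower, 32 had no wide-set sample above 4 and were tested only through the narrow set. Without the probe sets above 4 in 1 set only, 10.7% of 2711 dimmer probe sets were lower. Higher calls were spread evenly, with 1.31%, 1.82% and 1.73% in the same order. Of all called higher, 8 had no narrow-set sample above 4 and were tested only through the wide set. In the fit that omits Gsr-null samples 2 and 3, 242 of 2654 dimmer probe sets were called lower (9.12%), and the count with all other samples was 154 without WT 2 and 179 without WT 4.

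**Figure D2:**
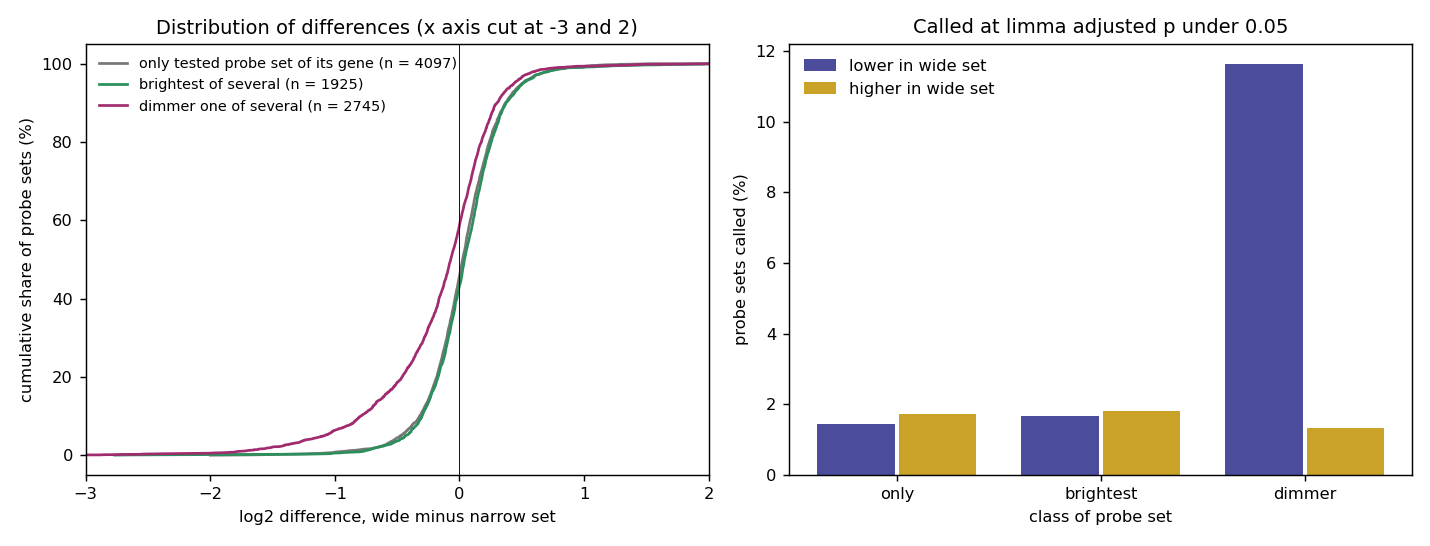
Left, cumulative share of tested probe sets (y axis, %) against their log2 difference, wide minus narrow set (x axis), for genes with 1 tested probe set and for the brightest and the dimmer probe sets of genes with several; right, share of each class called by limma at an adjusted p under 0.05 (bars, %). The line of the dimmer probe sets lies to the left of the others over the negative range, and 11.6% of them were called lower against 1.66% of the brightest.

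Of the 310 genes with several probe sets and at least 1 called lower, the brightest probe set was not called lower in 278. Over these 310 genes the median difference was −1.01 on the lowest probe set and −0.10 on the brightest, where the choice of the genes fixes the first value and not the second. All tested probe sets were called lower in 7 genes, namely Cited2, Dcun1d1, Fermt2, Malat1, Pcmtd1, Rab18 and Slco1a1. For higher calls the pattern differed: of 58 such genes 35 were called on the brightest probe set, and 56 of the 62 uncalled probe sets of these genes were positive as well, with a median of 0.26. For lower calls 336 of 511 uncalled probe sets were negative, with a median of −0.09. In 0 genes were probe sets called in opposite directions.

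The share of lower calls also varied with signal level. Among the dimmest of 3 equal groups by mean level 6.84% were called lower, in the middle group 4.71% and in the brightest 2.73%. By the suffix of the identifier, which tells how a probe set was designed, 7.33% of _a_at probe sets, 5.50% of _s_at, 4.25% of _at and 1.39% of _x_at probe sets were lower.

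Genes that hepatocytes need in quantity give examples, chosen after their values were seen. Slco1b2, a bile acid and organic anion uptake transporter, was between 11.84 and 12.25 in every sample on its brightest probe set, which differed by −0.05 between the sets (SE 0.10, limma adjusted p = 0.817). On its dimmest tested probe set it was at 8.36 and 9.25 in WT samples 2 and 4, at 8.08, 4.57 and 5.82 in Gsr-null samples 1 to 3, and between 2.97 and 3.81 in the wide set, a difference of −3.93 (SE 0.66, limma adjusted p = 0.00545). Every wide-set value lay under the filter level of 4, so this probe set was tested only through the narrow set and the size of its difference is taken against values near the floor. The narrow-set samples were spread widely on that probe set, with Gsr-null 2 and 3 closest to the wide set. On the remaining tested probe set Slco1b2 was 0.84 lower (SE 0.15, limma adjusted p = 0.00851).

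Hnf4a, the nuclear receptor that maintains hepatocyte identity, behaved likewise. Its dimmest probe set was between 7.95 and 8.47 in the narrow set and between 5.81 and 7.12 in the wide set (−1.80, SE 0.19, limma adjusted p = 0.000545). Its other probe sets differed by 0.06 and −0.16, with limma adjusted p of 0.948 and 0.709. The call thus rested on the dimmest of its 3 tested probe sets.

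Ctnnb1, which encodes beta-catenin, differed by −2.02 and −0.995 on its dimmer probe sets (limma adjusted p = 0.0026 and 0.00774) and by −0.14 on its brightest (limma adjusted p = 0.453). The first of these was at 2.39 to 3.66 in the wide set and passed the filter only through the narrow set. Aqp9, the glycerol channel of hepatocytes, was at 10.60 ± 0.16 (SD, n = 5) and 10.63 ± 0.17 (SD, n = 6) on its brightest probe set and 2.87 lower in the wide set on the other. Hsp90b1, a chaperone of the endoplasmic reticulum, differed by −0.20 on its brightest probe set and by −1.52 on the other. Actb itself, on ordinary probe sets that share the transcript of the rule's control, differed by −0.05 and −0.56, which is given as a description only.

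**Figure D3:**
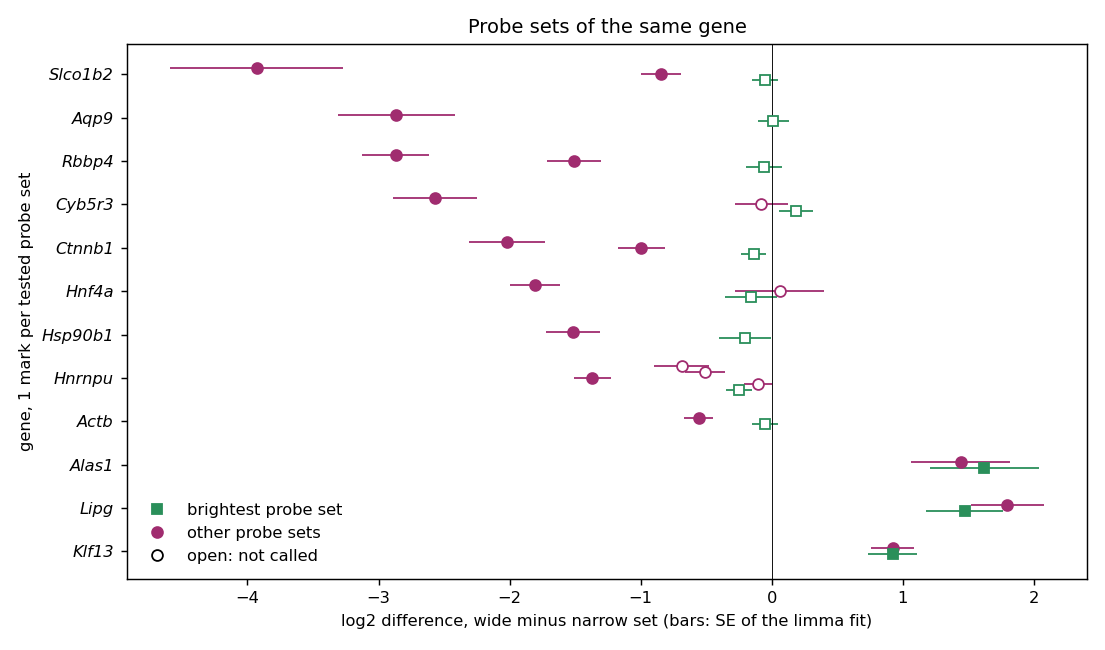
Log2 difference, wide minus narrow set (x axis), of every tested probe set of 12 genes (y axis), with the SE of the limma fit as bars; squares mark the brightest probe set of a gene and open marks those not called. For the genes from Slco1b2 to Actb the brightest probe set is open and close to 0 while at least 1 dimmer one lies to the left. For Alas1, Lipg and Klf13 both probe sets lie together on the right. Both Lipg probe sets were under 4 in every narrow-set sample (2.06 to 2.95 and 2.64 to 3.57). They were tested only through the wide set, so their agreement says little.

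With each gene represented by its brightest tested probe set, limma called 197 of 6022 genes (3.27%), 106 higher (1.76%) and 91 lower (1.51%). After quantile normalization again 192 genes were higher, after median centring 188 and with array weights 200, and with the mean of a gene's probe sets in place of the brightest 181 were lower. The counts were 80 higher and 45 lower when Gsr-null samples 2 and 3 were omitted. Leaving out WT 1, WT 2, WT 3, WT 4 or Gsr-null 5 gave 59, 40, 57, 42 and 56 lower genes. Leaving out WT 1 to WT 4 gave 63, 52, 53 and 38 higher genes, and leaving out Gsr-null 1, 4 or 5 gave 66, 70 and 49.

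The 12 called genes lower by the most were taken only from genes whose sets did not overlap within either genotype. Lack of overlap within a genotype was thus fixed by the choice of these genes, and of the 12 higher ones below. Among the 12 lower genes was Malat1, a long noncoding RNA kept in the nucleus. It was at 9.57 and 9.92 in WT samples 2 and 4, at 11.10, 8.997 and 9.88 in Gsr-null samples 1 to 3, at 7.34, 7.54 and 7.50 in the wide-set WT samples and at 6.48, 6.98 and 7.07 in the wide-set Gsr-null samples. The lowest narrow sample thus lay above the highest wide sample. Malat1 was 6.80-fold lower in the wide set (−2.77, SE 0.32, limma adjusted p = 0.000948), and its other probe sets differed by −3.17 and −1.65.

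Ceacam1, an adhesion receptor that also takes part in insulin clearance, ran from 8.06 to 9.65 in the narrow set and from 6.12 to 6.69 in the wide set. It was 4.50-fold lower (−2.17, SE 0.25, limma adjusted p = 0.000948) and was called lower on 5 of its 6 tested probe sets. Probe sets of its family can bind related transcripts, since 4 of them carry the _x_at suffix, so they are not separate measurements with certainty.

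Cldn1, a tight junction protein, ran from 8.13 to 9.49 in the narrow and from 6.54 to 7.22 in the wide set, 3.62-fold lower (−1.86, SE 0.21, limma adjusted p = 0.000783). Mmp19, a matrix metalloproteinase, ran from 6.78 to 7.51 and from 4.94 to 5.89 (−1.47, SE 0.16, limma adjusted p = 0.000598). That neither overlapped within a genotype was a condition of their choice. Qsox1, which forms disulfide bonds in secreted proteins, was lower by 1.43 on its brightest probe set and differed by −0.27 (limma adjusted p = 0.522) on the other, a gene on which the probe sets disagree.

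The remaining lower genes of this group were Resf1 (−1.998), S1pr1, a receptor for sphingosine 1-phosphate (−1.50), Bzw2 (−1.48), Ppp1r3c, which brings a phosphatase to glycogen (−1.41), Magt1 (−1.38), Cxadr, the adhesion protein named for the coxsackie and adenovirus receptor (−1.28), and Net1 (−1.22). Of the 12 genes, 9 had a single tested probe set, so agreement between probe sets could not be examined for them. The wide-set mean was under the filter level of 4 in 4 of them, Resf1, Magt1, Cxadr and Net1, so their differences end near the floor. In all leave-one-out fits 11 of the 12 stayed called, and Ppp1r3c lost its call without WT 2. Of the 12, 9 were still tested without Gsr-null samples 2 and 3, and 8 were called, all but Net1 (−1.03, limma adjusted p = 0.0704).

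The 12 higher genes were chosen by the same rule. It left out called genes whose sets overlapped within a genotype, such as Alas1 (1.62). Among the 12 was Lpin1, a phosphatidate phosphatase that also acts in the nucleus with PPAR-alpha. It was at 8.65 and 8.15 in WT samples 2 and 4 and at 7.56, 7.53 and 6.93 in Gsr-null samples 1 to 3. In the wide set it was at 10.13, 9.71 and 9.54 in WT and at 8.76, 9.89 and 10.004 in Gsr-null samples, all above the narrow set. It was 3.60-fold higher (1.85, SE 0.27, limma adjusted p = 0.00274) and higher on its other probe set too (1.44). Without Gsr-null samples 2 and 3 the difference was 1.62 (limma adjusted p = 0.0179).

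Pim3, a serine/threonine kinase, ran from 6.68 to 7.60 in the narrow and from 7.84 to 8.89 in the wide set (1.22, SE 0.21, limma adjusted p = 0.00581), and its other probe set differed by 1.15. Per1, a clock repressor that glucocorticoids also induce, ran from 2.82 to 4.35 and from 4.55 to 4.95 (1.21, SE 0.21, limma adjusted p = 0.00694). Its lowest values were those of Gsr-null samples 2 and 3, and without them the difference was 0.89 (limma adjusted p = 0.0271). Neither gene overlapped between the sets over both genotypes together, while no overlap within a genotype was a condition of their choice.

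Cebpd, a transcription factor of the acute response, ran from 3.70 to 4.63 in the narrow and from 5.18 to 5.83 in the wide set (0.99, SE 0.19, limma adjusted p = 0.0105). Its relative Cebpb was 0.76 higher on its brightest probe set (SE 0.15, limma adjusted p = 0.0127). The other probe set of Cebpb differed by 0.47 and was not called (limma adjusted p = 0.0886). Slc22a5, the carnitine importer, ran from 3.71 to 4.62 and from 5.10 to 6.01 (1.22, SE 0.21, limma adjusted p = 0.00631). Without Gsr-null samples 2 and 3, Cebpd and Slc22a5 stayed called while Cebpb did not (0.57, limma adjusted p = 0.064). Per1, Cebpd and Cebpb were the called members of the list of immediate early and stress-induced transcripts, with 22 tested. Over all genes tested 1.76% were called higher. Of the 22, 13 were positive, against 3312 of 6022 of all genes.

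The others were Tmem267 (2.03), Noct, a clock-controlled enzyme (1.52), Dclre1a, a nuclease of crosslink repair (1.28), Nrg4, a secreted ligand of the EGF family (1.27), Angptl4, the inhibitor of lipoprotein lipase (1.11), Mknk2, a kinase of the cap-binding factor eIF4E (1.05), and Dglucy, a D-glutamate cyclase (0.98). Tmem267, Nrg4 and Per1 averaged under 4 in the narrow set, so their differences start near the floor. Of the 12, 7 stayed called in every leave-one-out fit. Tmem267 and Nrg4 had no narrow-set sample above 4 and were tested only through the wide set, so their calls say little, and Tmem267 passed the filter in 6 of the 11 fits. Nrg4 lost its call without WT 4, Noct without any 1 of 8 samples (all but WT 5, Gsr-null 4 and Gsr-null 6), Angptl4 without any 1 of 7 (all but WT 1, WT 5, Gsr-null 2 and Gsr-null 3), and Dglucy without any 1 of 9 (all but WT 1 and WT 5). These 4 also lost it without Gsr-null samples 2 and 3 together (limma adjusted p = 0.0677, 0.132, 0.0532 and 0.142 for Nrg4, Noct, Angptl4 and Dglucy). Of the 12, 10 had a single tested probe set.

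**Figure D4:**
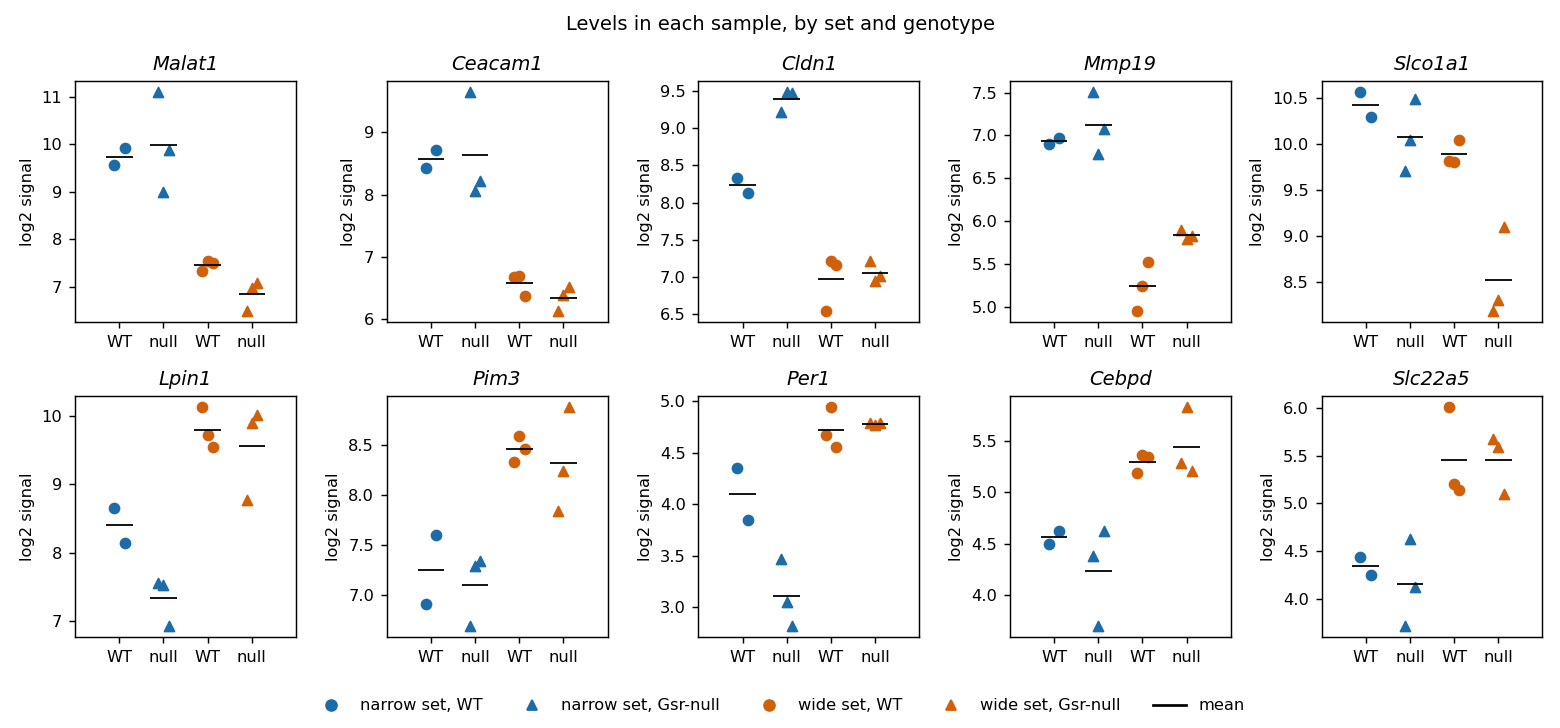
Log2 signal (y axis) of 10 genes in each sample, grouped along the x axis by set (colour) and genotype (shape), with group means as lines. Malat1, Ceacam1, Cldn1 and Mmp19 are lower and Lpin1, Pim3, Per1, Cebpd and Slc22a5 higher in every wide-set sample. These genes were chosen for a lack of overlap within either genotype. Slco1a1 overlaps between wide-set WT and narrow-set Gsr-null samples.

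The probe sets of Gsr differed in how they followed the sets. On the brighter one its level was 6.87 and 6.62 in the narrow-set WT samples, 6.91, 6.79 and 6.93 in the wide-set WT samples, 4.71, 5.29 and 5.09 in the narrow-set Gsr-null samples and 4.94, 5.09 and 4.83 in the wide-set Gsr-null samples. The set difference was 0.02 (SE 0.13, limma adjusted p = 0.957), and the genotype difference with the set as a block had a limma adjusted p of 4.94e-05. On the other tested probe set the difference was −0.73, which was not called (SE 0.25, limma adjusted p = 0.117). On it the Gsr-null samples did not overlap, with 4.72 to 4.98 in the narrow and 3.82 to 4.65 in the wide set, and the WT samples did, with 6.43 and 7.57 against 5.59 to 6.60.

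Gene lists are described by their counts and medians beside all genes tested, of which 3312 of 6022 were positive, with a median of 0.03. Oxidative phosphorylation subunits, which make up the respiratory chain and ATP synthase, were higher in the wide set on 62 of 71 tested members, with a median of 0.19. The test called 3 of the 71 higher and 0 lower, where 106 of 6022 genes were called higher (1.76%). Ndufa5, a subunit of complex I, was between 10.35 and 10.87 in the narrow and between 11.02 and 11.26 in the wide set (0.56, SE 0.11, limma adjusted p = 0.013), and its other probe set differed by 0.37. The call of Ndufa5 was lost without WT 2, that of Ndufs5 held in 4 of 11 leave-one-out fits and that of Cox6b1 in 1. Ndufs5, another complex I subunit, was 0.42 higher and Cox6b1, of cytochrome oxidase, 0.37 higher, while the other probe set of Cox6b1 differed by 0.08.

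The median was 0.19 within WT and 0.17 within Gsr-null samples, and 0.21 without Gsr-null samples 2 and 3, where 65 of 71 were positive and 0 were called. Mitochondrial ribosomal proteins, which translate the mitochondrial genome, were positive on 61 of 74 members with a median of 0.15. Of these 3 were called higher, Mrpl54 (0.47), Mrpl11 (0.46) and Mrps21 (0.58), and 1 lower, Mrps23 (−0.48), whose other probe set differed by 0.001. Over all genes tested, 1.76% were called higher and 1.51% lower. Mrps23 stayed called in 7 of 11 leave-one-out fits, Mrpl54 in 4 and Mrpl11 in 2, and the other probe sets of Mrpl11 differed by 0.18 and 0.26, not called. Cytosolic ribosomal proteins had 24 of 42 positive members, a median of 0.02 and 0 calls. A list of short coding hepatocyte transcripts had a median of 0.07 (21 of 36 positive) and one of long coding hepatocyte transcripts −0.08 (15 of 39).

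Genes induced by fasting were positive on 19 of 20 tested members, with a median of 0.48. Of the 20, 2 were called higher, Lpin1 and Angptl4, where 1.76% of all genes tested were called higher. Their median was 0.02 within WT and 0.54 within Gsr-null samples, and 0.44 without Gsr-null samples 2 and 3. The samples of the sets overlapped on this list. With each gene taken relative to its mean over all samples, the list median was 0.42, 0.48 and −0.22 in Gsr-null 4, 5 and 6. It was −0.77, −0.11 and −0.69 in Gsr-null 1 to 3. In WT it was −0.06 and 0.14 in samples 2 and 4, and 0.28, 0.11 and 0.02 in samples 1, 3 and 5. Genes of fatty acid synthesis and feeding were positive on 18 of 22, with a median of 0.30, and 1 was called, Tkfc (0.85), a kinase of fructose breakdown. Their median was −0.25 within WT and 0.78 within Gsr-null samples. The median of this list thus had opposite signs in the 2 genotypes, and limma called the difference between genotypes for 0 of the tested probe sets. The wide-set Gsr-null samples were split on this list. Relative to the gene means, its median was 0.95 and 0.79 in Gsr-null 4 and 5 and −0.73 in Gsr-null 6. In the narrow-set Gsr-null samples 1 to 3 it was −0.64, −0.27 and −0.16, so Gsr-null 6 lay below all of them. Tkfc lost its call without WT 2, WT 3, WT 4 or Gsr-null 5.

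Several lists lay on the lower side. Genes of the growth hormone axis and sex-biased genes were positive on 4 of 20 (median −0.30), genes of the unfolded protein and integrated stress response on 5 of 26 (median −0.27), and complement and coagulation proteins on 4 of 37 (median −0.24, 0 called). Bile acid synthesis and transport (6 of 20, median −0.19), acute phase proteins (7 of 25, median −0.16), cytochrome P450 enzymes (8 of 34, median −0.15, 0 called), sterol synthesis (4 of 17, median −0.12) and urea cycle and amino acid breakdown (9 of 33, median −0.12) lay there too. From the stress response list 1 of 26 was called lower, where 1.51% of all genes tested were. This was Pdia3, a protein disulfide isomerase. It ran from 11.29 to 11.78 in the narrow and from 10.51 to 11.04 in the wide set (−0.79, SE 0.13, limma adjusted p = 0.00543). The medians of complement and stress response genes were 0.06 and −0.03 within WT and −0.41 and −0.54 within Gsr-null samples, and −0.13 and −0.08 without Gsr-null samples 2 and 3. For the growth hormone list the median was −0.02 within WT, −0.33 within Gsr-null samples and −0.05 without those 2 samples. Cytochrome P450 enzymes had medians of −0.01, −0.19 and −0.02 in the same order, with 15 of 34 positive without them. Sterol synthesis (−0.20), bile acid (−0.18) and acute phase genes (−0.16) still had negative medians without them, and the urea cycle list was at −0.07. Gsr-null 1 was then the only narrow-set Gsr-null sample. Relative to the gene means over all samples, its list median was 0.45 for sterol synthesis and 0.77 for acute phase genes, the highest of all samples. WT 2 and WT 4 were at −0.32 and 0.37 for sterol synthesis and at −0.21 and −0.37 for acute phase genes. The acute phase median had opposite signs in the genotypes, 0.11 within WT and −0.41 within Gsr-null samples. In the same order the medians were −0.06 and −0.24 for sterol synthesis, −0.13 and −0.03 for bile acid genes and −0.11 and −0.12 for the urea cycle list.

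Called members of other lists included Slco1a1, an organic anion transporter that growth hormone favours in males (−1.10, limma adjusted p = 0.02, and −1.18 on its other probe set), Sc5d of sterol synthesis (−0.78), Cth, which makes cysteine from cystathionine (−0.51), and the deubiquitinases Usp8 (−0.78) and Usp15 (−0.99). Of 113 tested ubiquitin enzymes 2 were called lower and 2 were called higher as well, Rnf26 (0.60, and 0.08 on its other probe set) and Trim24 (0.95). Of 112 solute carriers 3 were called higher, among them Slc22a5 and Slc25a23 (0.60), and 4 lower, among them the nucleoside transporter Slc29a1 (−1.01). Beside these counts, 1.76% of all genes tested were called higher and 1.51% lower. Eif4e, the cap-binding translation factor (−0.68, and 0.07 on its other probe set), Aldh4a1 (−0.50) and Zfp207 (−0.57, and −0.36 on its other probe set) were called lower. Slco1a1 was between 8.18 and 9.10 in the wide-set Gsr-null samples and between 9.71 and 10.56 in all narrow-set samples. The proteasome subunits Psmc6 (−0.45) and Psmd7 (−0.84) were called lower among 37 tested, of which 16 were positive, where 91 of 6022 genes were called lower (1.51%). The other probe sets of Psmc6 differed by −0.07 and 0.11. Without Gsr-null samples 2 and 3, Usp8 (−0.80, limma adjusted p = 0.037) and Psmd7 (−1.13, limma adjusted p = 0.0233) stayed called, and Slco1a1 (−0.79, limma adjusted p = 0.0906), Sc5d, Cth, Usp15 and Psmc6 did not. Of the others, Slc25a23 (0.71, limma adjusted p = 0.0235) stayed called and Rnf26, Slc29a1, Eif4e, Aldh4a1 and Zfp207 did not. With single samples left out, Usp8 stayed called in all 11 fits, Psmd7 only without Gsr-null 2 or Gsr-null 3, and Psmc6 in 0. Slco1a1 lost its call without Gsr-null 5, Usp15 without WT 2, Cth without WT 2 or WT 4, and Sc5d without WT 1 to WT 4, Gsr-null 1 or Gsr-null 5. Slc29a1 lost it without WT 2, Slc25a23 without WT 2 or WT 4, and Rnf26 without WT 1 to WT 4 or Gsr-null 3, while Eif4e, Aldh4a1 and Zfp207 each stayed called in 2 of 11 fits.

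**Figure D5:**
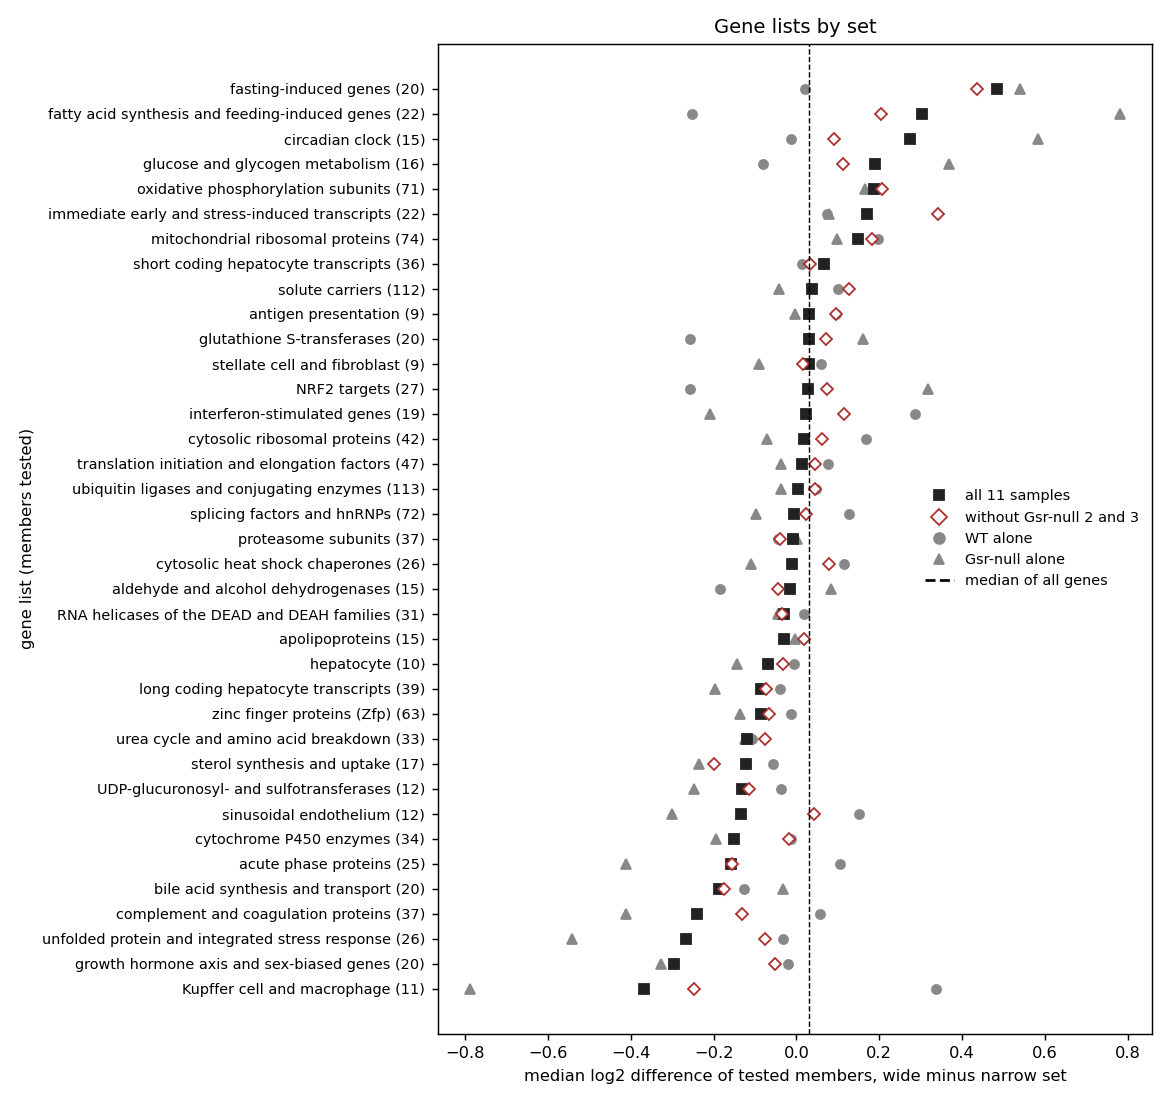
Median log2 difference, wide minus narrow set (x axis), of the tested members of each gene list with at least 9 tested members (y axis, number tested in brackets), for all samples, without Gsr-null samples 2 and 3, and within each genotype; the dashed line is the median of all genes. Oxidative phosphorylation subunits stay between 0.17 and 0.21 under all 4, while fatty acid synthesis genes run from −0.25 within WT to 0.78 within Gsr-null samples.

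Markers of the tissue and of other cell types did not part the sets. The summed level of 10 hepatocyte markers was between 16.66 and 16.86 on the log2 scale in the narrow and between 16.49 and 16.80 in the wide set. Of the 10, 0 were called, though all 10 were negative (median −0.07). Tat among them differed by −0.45 (SE 0.22, limma adjusted p = 0.274). Kupffer cell and macrophage markers were negative on 10 of 11 tested members, with a median of −0.37 that was 0.34 within WT and −0.79 within Gsr-null samples. Their summed level ran from 11.15 to 12.08 and from 10.83 to 11.81, and 0 were called. In liver pieces fewer cells of a type and less RNA per cell cannot be told apart. Markers of T and NK cells and of skeletal muscle were below 4 in all samples for every member measured, and so were all cholangiocyte markers but 1 of 7. The part of these cells in the set differences was not tested.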

How the data were processed

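Expression in liver was measured on 1 single-colour Affymetrix array per mouse, 5 WT and 6 Gsr-null. The deposited values are log2 signals per probe set that the authors made with GCRMA, per the submitters' processing notes. GCRMA subtracts background by the base composition of each probe, equalises the arrays and summarises probes into 1 value, which can hide a change shared by most genes. The sources used here give no version of it. The log2 scale was read from the range of the values. The number of arrays limits the precision.

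Of 22690 probe sets, 64 controls were kept out of the fits. The 9560 others above a log2 signal of 4 in at least 5 samples (42.3%) were tested. Of the 22626 others in all, 20380 had 1 gene symbol in the platform annotation, 691 several and 1555 none; 20351 of the first were found by Entrez identifier in the RefSeq gene table. All 11 samples entered the fits by lmFit and eBayes (limma 3.58.1, R 4.3.3), with Benjamini-Hochberg adjustment over all tested probe sets and calls at an adjusted p under 0.05. Single values per sample were compared by an exact permutation test within genotype. A gene with several tested probe sets was read from the brightest, by its mean across the 11 samples. Alternatives changed the filter, the scaling, array weights, the threshold, the samples and the way a gene is read, and a replicate block was tried.

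The sets, the gene lists and the named genes were chosen with earlier results of these data known. The rule for named genes took Gsr, Actb and Gapdh, the 12 called genes with the largest difference in each direction whose sets did not overlap within either genotype (no clone or predicted-gene names), from each list at most 3 called genes (where none was called, the one of smallest p), and called interactions and opposite calls within a gene, of which there were 0. The comparison of the 3′ with the MB probe set of Pcx, the omission of single samples for the controls, the choice of the brightest probe set within 1 set, and the omission of Gsr-null samples 2 and 3 for lists and single genes were added after the data were seen. Protein lengths were not used here, and positions of probe sets along transcripts were not analysed here. Genes were not ranked by correlation with the 3′ minus 5′ difference because the samples fell into separate clusters.

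The comparison of the sets was tested on simulated data of 9560 probe sets. It found 72% of the probe sets given a log2 change of 1 and 97% of those given 2, while 7.14% of the calls were false. The simulated noise was drawn independently for each probe set and sample, with no genotype difference, shared shift or distant sample. These shares therefore need not hold for the measured arrays. Figures were drawn with matplotlib 3.10.9.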

Additional observations from a re-analysis of the deposited data

Results flagged for a closer look

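Among 80 groups examined, each the narrow or the wide set for 1 measure, 6 held a sample far from the others, where chance gives about 4. The 3′ probe set of the CreX hybridisation control was at 0.84 in Gsr-null 2 and between 13.22 and 13.41 in the other narrow-set samples, while its 5′ probe set in that sample was at 13.18. Noct was at 4.88 in Gsr-null 3 against 5.97 to 6.24 in the rest of the narrow set, and at 8.80 in Gsr-null 6 against 6.70 to 7.36 in the rest of the wide set. Cebpd was at 3.70 in Gsr-null 2 against 4.38 to 4.63, and at 5.83 in Gsr-null 5 against 5.18 to 5.36. Bzw2 was at 5.57 in Gsr-null 2 against 6.29 to 6.45.

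Several probe sets outside the tested ones were bright in some Gsr-null samples and at or under 5 in every WT sample. Ighm, the heavy chain of immunoglobulin M, reached 8.34 and 9.23 on its 2 probe sets in Gsr-null 4, and was at most 3.91 and 4.67 in all other samples. Cyp2b9, a cytochrome P450, was at 9.97 in Gsr-null 4, and Cidea and Cidec, proteins of the lipid droplet surface, were at 8.74 and 8.46 there. Each of these 3 was also high in Gsr-null 5, at 9.37, 8.04 and 8.04, so they were high in 2 of the 3 wide-set Gsr-null samples. Kcnk1, a potassium channel, was at 9.16 in Gsr-null 3 and at 7.45 or less elsewhere.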

How the results depend on the processing

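Counts of calls depended on the settings as follows. Without a filter limma called 752 probe sets lower, 558 of them dimmer ones of a gene, and 4 for the interaction; with a filter at log2 6 it called 218 and 142, and 52 genes lower. Quantile normalization again gave 264 probe sets and 192 genes higher, median centring 258 and 188, and array weights 273 and 200. At an adjusted p under 0.01 there were 20 probe sets higher, 180 lower and 144 dimmer ones lower, with 15 genes higher and 19 lower. WT samples alone gave 44, 188, 139, 30 and 32 in that order, and Gsr-null samples alone 74, 202, 131, 57 and 51. Without Gsr-null samples 2 and 3 there were 45 genes lower and 1 interaction, and with the mean of a gene's probe sets 181 genes lower.

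With 1 sample omitted limma called 52 to 169 probe sets higher, 213 to 435 lower, 154 to 313 dimmer ones lower, 38 to 124 genes higher, 40 to 90 lower and 0 to 172 interactions. The Tfrc difference, at the floor, ran from −0.125 to 0.079, and Gsr from −0.050 to 0.095. Signs turned for Tfrc (0.024) and the 5th percentile of the array (0.026) without Gsr-null samples 2 and 3, for Oit3 (0.044) with the replicate block, for Actb 0.060, Hbb-b2 0.14, Pparg −1.29 and Cela1 0.61 in WT samples alone, and Gsr −0.015 with the Gapdh difference as a continuous term, −0.073 in Gsr-null samples alone and −0.35 with the mean of its probe sets. Of the values of single named genes, 1500 stayed on their side with the same sign, 362 lost a call, 19 gained one and 12 turned. The cause of these changes was not tested.

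With the replicate number as a replicate block, limma called 3 probe sets higher and 9 lower, 7 dimmer ones lower, 2 genes higher and 1 lower. Same-numbered WT and Gsr-null samples deviated from their group means with correlations of −0.17, 0.04, −0.06, −0.24 and −0.17, and 0 of 5 matched their own number best. The samples numbered 1, 3 and 4 lie in opposite sets in the genotypes, so the set difference itself enters these correlations. They therefore cannot show whether the numbers pair samples.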

Other observations

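Ctse, the aspartic protease cathepsin E, came closest to a difference of the set effect between genotypes, and was singled out after its values were seen. It was at 9.96 and 8.73 in the narrow-set WT samples and between 2.41 and 2.71 in the wide-set WT samples. In Gsr-null samples it was at 5.22, 2.81 and 5.39 in the narrow set and at 9.68, 8.97 and 5.52 in the wide set. The interaction was 10.33 (limma adjusted p = 0.059), so it was not called. Another probe set of Ctse, outside the tested ones, did not follow this order, with 3.33 to 4.09 in WT samples, 5.92 to 6.34 in Gsr-null samples 1 to 3 and 3.31 to 3.79 in Gsr-null samples 4 to 6.

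Vnn1, a pantetheinase of the fasting list, was between 8.84 and 10.05 in all WT samples. It was at 3.15, 4.12 and 4.17 in the narrow-set Gsr-null samples, at 10.55 and 9.60 in Gsr-null 4 and 5, and at 4.26 in Gsr-null 6. The set difference of 2.25 was not called (limma adjusted p = 0.281).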
